A study of Mus musculus with 44 samples.

Results

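The 7 genes described here encode the receptor for interleukin-7 (IL-7) and the signalling proteins directly behind it, and they were taken by name from a table of 23234 mouse genes. They are Il7r and Il2rg, the subunits of the IL-7 receptor, Crlf2, a receptor chain that pairs with the Il7r product for another ligand, the kinase genes Jak1 and Jak3, and the transcription factor genes Stat5a and Stat5b. All 7 passed the filter on low values, and their smallest value in any library was 3.24 FPKM (a read-based level corrected for transcript length and library size). The study sequenced poly(A) RNA from iLS cells, multipotent blood progenitors of C57BL/6J fetal liver, while they turned toward the B lineage. All groups carried the same fusion of Id3 to an ERT2 domain, were grown on the stromal feeder line TSt-4, and came from a culture with IL-7 at 20 ng/mL, SCF and Flt-3L at 10 ng/mL each and 4-hydroxytamoxifen (4-OHT) at 40 nM. From 0 h, 4-OHT was left out, IL-7 was given at 5 ng/mL, and the labels name neither SCF nor Flt-3L. Libraries were made in triplicate at 14 of the 16 time points (0, 0.5, 1, 2, 4, 6, 8, 10, 12, 24, 48, 72, 96 and 144 h), and once at 120 h and at 168 h, which gave 44 in all. The labels do not say whether replicates were separate cultures, so the p-values rest on a spread between libraries that may be technical.

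IL-7 binds a receptor made of the Il7r product and the common gamma chain, the product of Il2rg, which several other cytokine receptors share. JAK1 sits on the first chain and JAK3 on the second, and both activate STAT5A and STAT5B, which then enter the nucleus and bind DNA. The same Il7r chain joins the Crlf2 product to form the receptor for TSLP, a related cytokine. In adult mouse bone marrow, IL-7 signalling is needed for early B-cell precursors to survive and divide, and it restrains recombination of the light chain genes.

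Whether the feeder cells were taken out before RNA isolation is not stated, and no value separates their RNA from that of the blood cells. A sum over 18 general blood-cell genes (such as Ptprc and Coro1a) and a sum over 22 stromal genes (such as Col1a1 and Fn1) are therefore given beside the results. The blood-cell sum ranged over 2171 to 2917 FPKM in the 3 libraries at 0 h and over 795 to 843, 349 to 821 and 1718 to 2030 FPKM at 6, 24 and 144 h. The stromal sum ranged over 674 to 2155 FPKM at 0 h and over 8344 to 10096, 6919 to 8308 and 1773 to 2980 FPKM at the same later times. Of the 18 blood-cell genes, 18 were called lower at 6 h and at 24 h than at 0 h, and of the 20 stromal genes tested, 20 were called higher at both times. Over all genes tested, 19.2% and 22.5% were called lower, and 19% and 20.8% higher, at 6 and 24 h. For the label of the cells, the 10 B-cell markers had a median log2 change of 3.40 at 144 h against 0 h (0.03 over all genes). Of the 10, 8 were called higher, beside 5.64% of all genes. At 0 h, 5 of 9 progenitor markers had a mean of at least 1 FPKM, and Hlf was listed at 0 in all 3 libraries.

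The start-site regions of Il7r, Il2rg and Jak3 are printed because these were the 3 members that passed the test over all time points given below. They are RefSeq promoters of build GRCm38.p6, from 250 bases before to 50 bases after the start, printed 5′ to 3′ along the gene: Il7r at chr15:9529827-9530126, minus strand, Il2rg at chrX:101268206-101268505, minus strand, and Jak3 at chr8:71676133-71676432, plus strand. Capitals mark matches, on either strand, to TTCNNNGAA (the STAT motif), TGTTTAC (the forkhead motif) or CAGNTG (an E-box as bound by E proteins, which Id proteins block).
Il7r: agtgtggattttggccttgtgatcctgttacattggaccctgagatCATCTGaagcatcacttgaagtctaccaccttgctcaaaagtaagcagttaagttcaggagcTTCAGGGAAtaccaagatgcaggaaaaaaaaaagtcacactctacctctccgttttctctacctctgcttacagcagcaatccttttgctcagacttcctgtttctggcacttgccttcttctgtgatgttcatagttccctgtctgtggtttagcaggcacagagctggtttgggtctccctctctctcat
Il2rg: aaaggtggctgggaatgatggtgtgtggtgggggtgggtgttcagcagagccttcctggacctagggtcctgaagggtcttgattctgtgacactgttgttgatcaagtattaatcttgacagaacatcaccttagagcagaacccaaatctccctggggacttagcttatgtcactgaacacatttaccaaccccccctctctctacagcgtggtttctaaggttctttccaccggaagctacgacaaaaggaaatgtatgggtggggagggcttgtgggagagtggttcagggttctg
Jak3: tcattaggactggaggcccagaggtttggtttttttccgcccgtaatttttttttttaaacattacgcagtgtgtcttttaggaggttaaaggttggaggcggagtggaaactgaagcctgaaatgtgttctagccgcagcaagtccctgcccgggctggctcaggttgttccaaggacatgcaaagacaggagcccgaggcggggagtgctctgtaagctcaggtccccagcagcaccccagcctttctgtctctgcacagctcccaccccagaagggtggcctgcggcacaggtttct
In the Il7r window, TTCAGGGAA lies 142 bases before the start and CATCTG, the E-box read on the other strand, 204 bases before it, while the Il2rg and Jak3 windows hold none of the 3 motifs. Among 32544 mouse promoters of the same length, 8.33% held TTCNNNGAA, 3.66% held TGTTTAC and 51.5% held CAGNTG. These matches are letters only, and no file of the series measured binding there.

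Levels of Il7r, Il2rg and Jak3 differed from 0 h at some time point, and those of the other 4 members did not pass the same test. By the moderated F test of limma on log2(FPKM + 1), the adjusted p was 0.000233 for Il7r, 3.78e-06 for Il2rg and 6.51e-06 for Jak3. It was 0.0911 for Stat5b, 0.153 for Stat5a, 0.286 for Jak1 and 0.549 for Crlf2. Over all 13907 genes tested, 56% passed, so a count of 3 of 7 does not set the members apart from other genes. Because these are bulk samples, fewer cells of a type and less RNA per cell cannot be told apart in any value below.

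**Figure D1:**
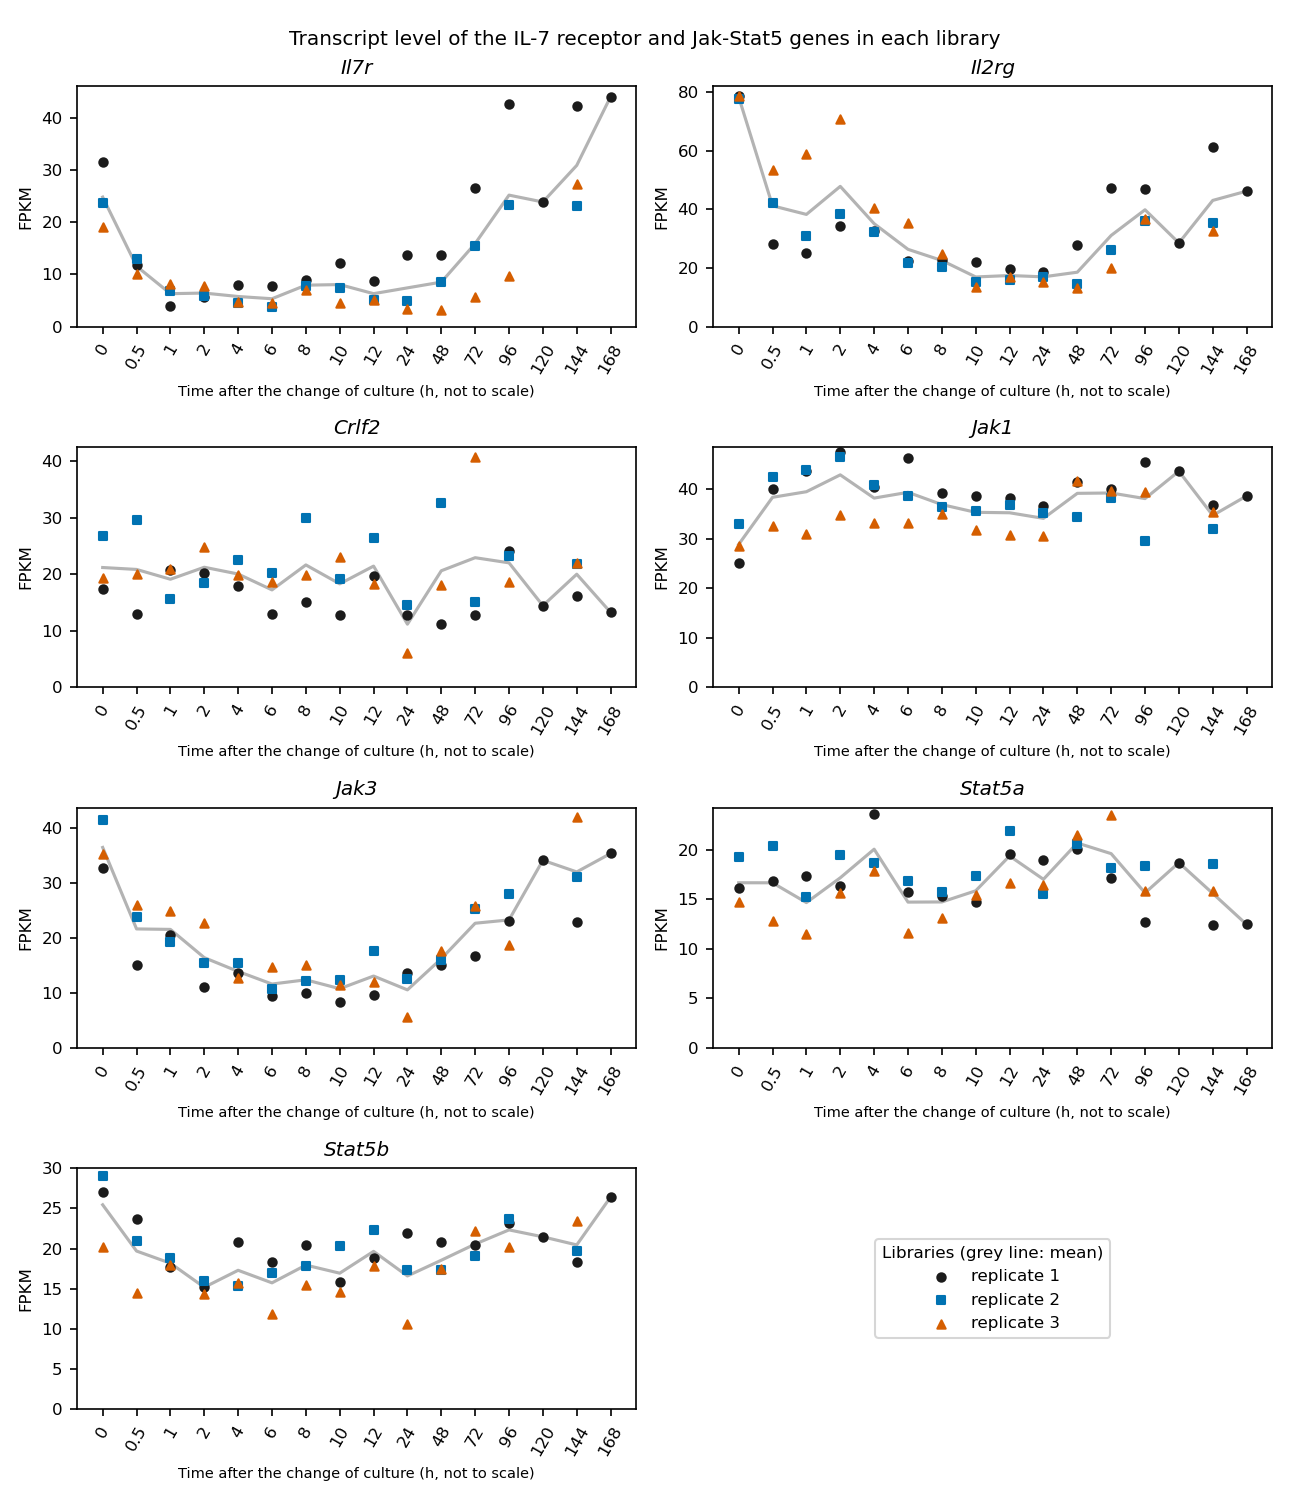
FPKM of each gene (vertical axes, from 0) in all 44 libraries against time (horizontal axis, h, not to scale), with symbols for replicates and a grey line through the means (the single libraries at 120 and 168 h carry the replicate 1 symbol). Il7r, Il2rg and Jak3 are low from 6 to 24 h and higher again at 144 h, while Jak1, Stat5a and Crlf2 move less.

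Il7r, the chain that recognises IL-7, stood at 31.6, 23.7 and 19.2 FPKM in the 3 libraries at 0 h (replicates 1, 2 and 3). The libraries gave 11.7, 12.9 and 10.1 FPKM at 0.5 h and 3.93, 6.73 and 8.25 FPKM at 1 h. Each of the libraries from 0.5 to 24 h was below the lowest one at 0 h. The level then stayed low, with 7.77, 3.78 and 4.45 FPKM at 6 h and means between 5.34 and 8.05 FPKM from 1 to 24 h. The log2 changes against 0 h at 1, 6 and 24 h were -1.84, -2.05 and -1.79 (each ± 0.48, SE), with adjusted p of limma of 0.00349, 0.000932 and 0.00294. These 3 calls held with any single library of the groups compared left out. Scaled to the general blood-cell genes, Il7r kept its sign at 1 and 6 h without passing the test, and at 24 h its sign turned (0.51). Il7r was called lower at 9 of the 13 later replicated time points, those from 1 to 48 h. Over all genes, limma called 21.6, 32.1, 35, 35, 38.1, 39.6, 41.5, 41.9, 43.3, 38.4, 25.4, 10.3 and 8.89% in either direction at 0.5, 1, 2, 4, 6, 8, 10, 12, 24, 48, 72, 96 and 144 h.

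Later libraries of Il7r spread widely. At 72 h the values were 26.6, 15.5 and 5.65 FPKM, at 96 h 42.6, 23.4 and 9.65 FPKM, and at 144 h 42.4, 23.1 and 27.3 FPKM. The ranges at 72, 96 and 144 h all overlapped that at 0 h. From 24 h, where the libraries gave 13.8, 4.995 and 3.45 FPKM, to 144 h the change was 2.07 ± 0.48 on the log2 scale (adjusted p of limma 0.00117, and 0.22 scaled to the blood-cell genes), and the libraries of these 2 time points did not overlap. Against 0 h the level at 144 h differed by 0.29 ± 0.48, with a 95% interval from -0.69 to 1.26 and an adjusted p of 0.809. The single libraries gave 23.9 FPKM at 120 h, inside the range of 0 h, and 44.1 FPKM at 168 h, above it.

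Il2rg, the common gamma chain, was the most abundant of the 7 transcripts at 0 h, at 78.5, 77.8 and 78.8 FPKM. It gave 28.2, 42.1 and 53.4 FPKM at 0.5 h, 25.2, 30.8 and 58.9 FPKM at 1 h, and 34.2, 38.6 and 70.8 FPKM at 2 h. The 0 h libraries lay close together and above every later library, and replicate 3 was the highest of its time point at all 5 times from 0.5 to 6 h. Later values were 22.3, 21.5 and 35.2 FPKM at 6 h and 18.7, 17.0 and 15.2 FPKM at 24 h. The log2 changes at 1, 6 and 24 h were -1.11, -1.57 and -2.15 (each ± 0.31, adjusted p of limma 0.00662, 0.000152 and 1.52e-06), and scaled to the blood-cell genes all 3 turned sign and missed the threshold, as given further on. The 1 h call was lost without 1 h replicate 1, where the change was -0.86 with an adjusted p of 0.0614.

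From 72 h Il2rg was higher again than at 24 h, below its 0 h libraries throughout. At 48 h its libraries gave 27.8, 14.6 and 13.3 FPKM and overlapped those at 24 h. Libraries gave 47.2, 26.1 and 19.9 FPKM at 72 h and 61.2, 35.3 and 32.6 FPKM at 144 h, and the single ones 28.5 FPKM (120 h) and 46.2 FPKM (168 h). From 24 h to 144 h it was higher by 1.24 ± 0.31 on the log2 scale (adjusted p of limma 0.00257), a direction that turned when scaled to the blood-cell genes (-0.61). It was called lower than at 0 h at 11 of 13 time points, including 72 h (-1.40 ± 0.31) and 96 h (-0.97 ± 0.31). At 144 h the change was -0.91 ± 0.31 with an adjusted p of 0.0655, and without 144 h replicate 1 it was -1.18 with an adjusted p of 0.0249. The groups at 0 and 144 h did not overlap.

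Crlf2, the partner chain for TSLP, varied widely between replicates. Its libraries gave 17.3, 26.9 and 19.4 FPKM at 0 h and 12.9, 20.3 and 18.6 FPKM at 6 h. Later ones gave 12.9, 15.1 and 40.9 FPKM (72 h) and 16.2, 21.8 and 22.0 FPKM (144 h). Of these times, only 72 h had a library far above the others, replicate 3. At 24 h the values were 12.8, 14.6 and 6.16 FPKM, all below the 0 h libraries. This was the 1 time point called for Crlf2 (-0.92 ± 0.35, adjusted p of limma 0.0341), and the call was lost without 24 h replicate 3 (-0.58), without 0 h replicate 2 (-0.75) and without 0 h replicate 3 (-0.97, adjusted p 0.0518). Scaled to the blood-cell genes the direction at 24 h turned (1.38).

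Jak3, the kinase bound to the common gamma chain, stood at 32.7, 41.5 and 35.3 FPKM at 0 h. It gave 20.7, 19.3 and 24.9 FPKM at 1 h, 9.402, 10.7 and 14.8 FPKM at 6 h and 13.6, 12.6 and 5.58 FPKM at 24 h. None of these libraries reached the 0 h range, and 24 h replicate 3 was the lowest of all 44. The log2 changes at 1, 6 and 24 h were -0.73, -1.58 and -1.77 (each ± 0.27), with adjusted p of limma of 0.0393, 2.48e-05 and 3.88e-06, and scaled to the blood-cell genes all 3 turned sign and missed the threshold. At 1 h the call was lost in 5 of the 6 fits that leave out 1 library (all but that without 1 h replicate 3), with changes between -0.64 and -0.81 and adjusted p up to 0.13. By 144 h the libraries held 23.0, 31.2 and 41.98 FPKM, overlapping those at 0 h and not those at 24 h, and the single libraries held 34.2 FPKM (120 h) and 35.4 FPKM (168 h). The change from 24 h to 144 h was 1.56 ± 0.27 on the log2 scale (adjusted p of limma 6.19e-05, and -0.30 scaled to the blood-cell genes).

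Jak1, the kinase bound to the Il7r chain, moved in the other direction and by less. Its libraries gave 25.05, 32.9 and 28.6 FPKM at 0 h, and 47.4, 46.4 and 34.8 FPKM were seen 2 h later. The 6 h libraries gave 46.3, 38.6 and 33.2 FPKM. At 2 and 6 h each library was above the highest one at 0 h, and replicate 3 was the lowest of its time point at all 5 times from 0.5 to 6 h. Jak1 was called higher at 5 of 13 time points, with log2 changes of 0.43, 0.55 and 0.43 (each ± 0.16) at 1, 2 and 6 h and adjusted p of limma of 0.0360, 0.00686 and 0.0305. With the stromal mean as a covariate the change was -0.096 at 1 h and -0.19 at 6 h, and neither was called. That model called few genes of any kind at these times, as given further on, so it cannot settle the direction of Jak1. The calls at 1 h and at 6 h were each lost in 4 of 6 fits that leave out 1 library: those without 0 h replicate 1 (0.34 at both times), 0 h replicate 3, or replicate 1 or 2 of the later time. The call at 72 h (0.44 ± 0.16) was lost in all such fits but that without 0 h replicate 2. The single libraries gave 43.6 FPKM at 120 h and 38.6 FPKM at 168 h, both above the highest 0 h library.

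Stat5a and Stat5b lie next to each other in the annotation with no gene between them, and 15.8% of the 50-base windows of the longest Stat5a transcript also occur in Stat5b. Reads from such stretches could be split between the paralogs by the authors' quantification, so their separate values are uncertain to that extent. Stat5a stood at 16.1, 19.2 and 14.7 FPKM at 0 h and at 15.8, 16.8 and 11.6 FPKM at 6 h. The libraries gave 19.0, 15.5 and 16.5 FPKM at 24 h and 12.4, 18.5 and 15.8 FPKM at 144 h. All 3 later ranges overlapped that at 0 h. Stat5a was called at no time point, and the 95% intervals of its log2 change were -0.54 to 0.19 (6 h) and -0.33 to 0.40 (24 h). Scaled to the blood-cell genes it was higher at both (1.51 and 2.33), near the shift of all genes.

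Stat5b stood at 27.1, 29.1 and 20.2 FPKM at 0 h and 15.2, 16.0 and 14.3 FPKM at 2 h. The libraries gave 18.3, 17.0 and 11.9 FPKM at 6 h and 18.3, 19.7 and 23.4 FPKM at 144 h. The libraries at 2 and 6 h were all below those at 0 h, and those at 144 h overlapped them. Stat5b was called lower at 5 of 13 time points, among them 6 h (-0.67 ± 0.20, adjusted p of limma 0.00733) and 24 h (-0.63 ± 0.20, adjusted p 0.00990), and at both its direction was not kept when values were scaled to the blood-cell genes (1.02 and 1.67). The 6 h call was lost without 6 h replicate 3 (-0.49, adjusted p 0.0719), and the 24 h call without 24 h replicate 3 (-0.35, adjusted p 0.154) or 0 h replicate 2 (-0.53, adjusted p 0.0587).

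Counted over the 7 genes, 3 were called lower (Il7r, Il2rg, Jak3) and 1 higher (Jak1) at 1 h against 0 h, where limma called 15.3% of all genes lower and 16.8% higher. At 6 h, 4 were called lower (the same 3 and Stat5b) and 1 higher (Jak1), against 19.2% and 19% of all genes. At 24 h, 5 were called lower (those 4 and Crlf2) and 0 higher, against 22.5% and 20.8%. The median log2 change of the 7 was -0.67 at 6 h and -0.92 at 24 h, beside -0.06 at both times over all genes tested.

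At 72 h, Il2rg was called lower and Jak1 higher, with 8.23% and 17.2% of all genes. At 144 h against 0 h, 0 of the 7 were called by limma, and 1 of them, Il2rg, had an unadjusted p under 0.05, with 5.64% of all genes called higher and 3.24% lower. At 144 h against 24 h, which uses no 0 h library, Il7r, Il2rg and Jak3 were called higher and none lower, against 17.4% and 15.6% of all genes (32.9% in all). The median change of the 7 in that comparison was 0.85, beside 0.08 over all genes. Groups of 3 libraries did not overlap for 4, 5, 4, 3 and 1 of the 7 members at 1, 6, 24, 72 and 144 h against 0 h, and for 46.8, 49.9, 47.4, 37 and 23.1% of all genes. For 144 h against 24 h this held for 4 of the 7 and 37.2% of all genes.

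The identifying codes of the libraries fall into 6 runs, and the labels do not say what a run is. Replicates 1, 2 and 3 from 0 to 6 h each belong to a run of their own. Within these, the log2 change of Il7r at 6 h was -1.89, -2.37 and -1.89, that of Il2rg -1.77, -1.80 and -1.14, and that of Jak3 -1.70, -1.86 and -1.20. At 1 h the same runs gave -2.72, -1.68 and -1.12 for Il7r, -1.60, -1.31 and -0.42 for Il2rg, and -0.64, -1.07 and -0.49 for Jak3. The direction was thus the same in each run at both times. The mean log2 level of the blood-cell genes shared it. In the same runs that mean changed by -1.68, -1.84 and -1.55 at 6 h and by -1.30, -1.52 and -0.79 at 1 h. A single run holds both 24 and 144 h, with 2.67 for Il7r, 1.05 for Il2rg, 2.71 for Jak3 and 2.53 for the blood-cell mean. No run holds both 0 h and any time from 48 h on. Changes from 0 h to 48, 72, 96 or 144 h therefore cannot be told apart from differences between runs.

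The general blood-cell genes moved with Il7r, Il2rg and Jak3, and the stromal genes moved the other way. When log2 values were scaled to the mean of the 18 blood-cell genes, Il2rg changed by 0.094, 0.12 and 0.15 (each ± 0.30) at 1, 6 and 24 h, and Jak3 by 0.47, 0.11 and 0.53 (each ± 0.33). None of these passed the test, and all had the opposite sign to the values as deposited. This scaling moves the median of all genes to 1.12, 1.64, 2.24 and 0.48 at 1, 6, 24 and 144 h against 0 h, and to -1.77 at 144 h compared with 24 h. It shifts all genes of a library alike, so the distance of a gene from that median is the same before and after scaling. Il7r, Il2rg and Jak3 lay below the median of all genes at 1, 6 and 24 h on either scale. So did the median of the blood-cell genes. With the stromal mean as a covariate, no member was called at 1, 6, 24 or 72 h, where that model called 27, 14, 8 and 0 of all 13907 genes. The change of Jak3 in it was -1.33 at 6 h and -1.55 at 24 h, close to the values as deposited, while Il7r turned sign at both times (0.56 and 0.55). With so few genes called at these times, the model cannot settle the direction of either gene. Of the 3 calls at 144 h against 24 h, Jak3 remained in this model (1.42, adjusted p of limma 0.0468), with 395 of all genes called.

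**Figure D2:**
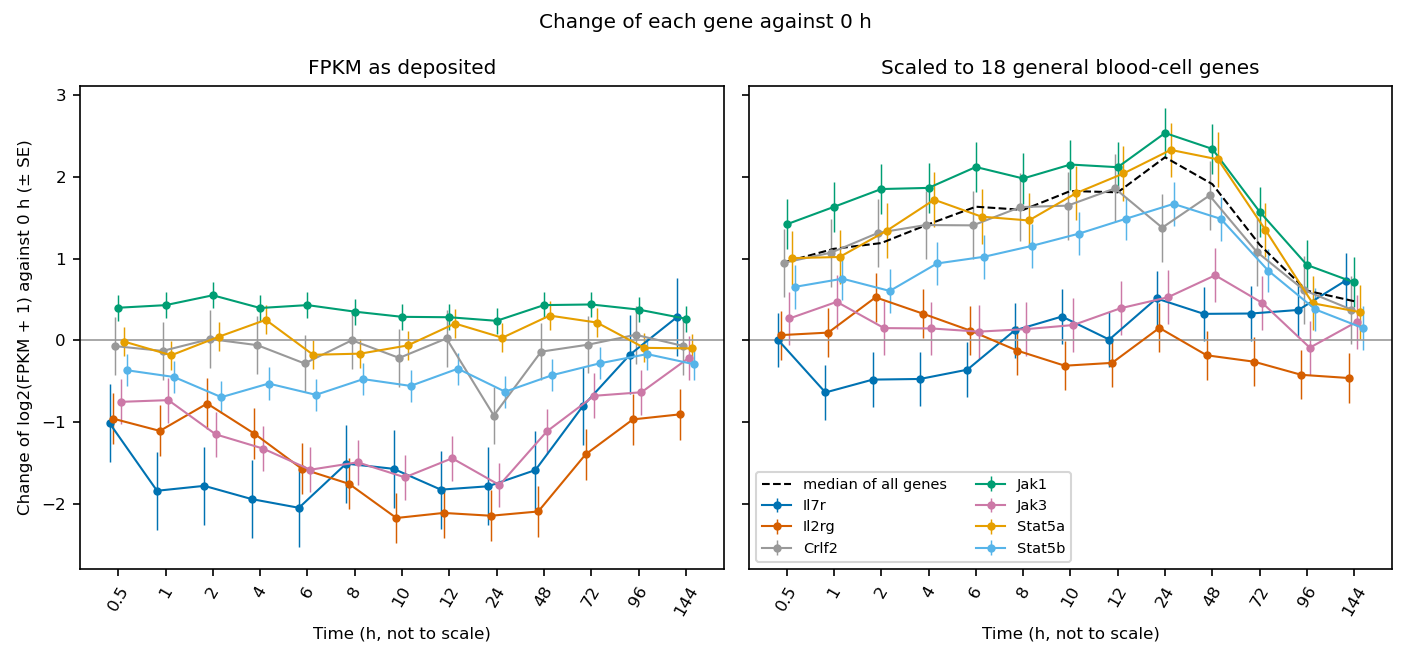
Change of log2(FPKM + 1) against 0 h (vertical axis, ± SE of limma) by time (horizontal axis, h, unscaled spacing), as deposited on the left and scaled to 18 blood-cell genes on the right, where the dashed line is the median of all genes. As deposited, Il7r, Il2rg and Jak3 lie between -1.57 and -2.05 at 6 h, and after scaling they lie between -0.36 and 0.12 while Jak1 stands at 2.12.

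From 1 to 4 h Il7r lay below its 0 h libraries also per unit of blood-cell signal, though the test did not call the scaled change. Per 1000 FPKM of the blood-cell sum, its level at 0 h was 9.71 ± 2.15 FPKM (SD, n = 3), and 1, 2, 4 and 6 h later it was 5.52 ± 1.79, 5.64 ± 0.054, 5.86 ± 1.91 and 6.47 ± 2.44. The libraries at 1, 2 and 4 h, which ranged from 3.47 to 7.77, were all below those at 0 h, which ranged from 8.13 to 12.2. At 24 h it was 11.7 ± 4.55, at 144 h 16.2 ± 4.48, overlapping 0 h by a narrow margin (lowest library 11.9), and 22.4 in the single library at 168 h. The scaled log2 change did not pass the test of limma at 1 h (-0.64 ± 0.33, adjusted p 0.0825), 2 h (-0.48 ± 0.33), 4 h (-0.47 ± 0.33), 6 h (-0.36 ± 0.33) or 144 h (0.73 ± 0.33, adjusted p 0.158). Il2rg on the same scale was 31.1 ± 4.88 FPKM at 0 h and 32.8 ± 11.6, 40.9 ± 9.26, 32.3 ± 10.4 and 22.5 ± 6.67 at 1, 2, 6 and 144 h, and each of these ranges overlapped that at 0 h.

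Scaled in this way Jak1, Stat5a, Stat5b and Crlf2 were called higher at 1, 6 and 24 h, as were 9975, 12253 and 12959 of the 13907 genes. Jak1 stood at 11.4 ± 1.77 FPKM per 1000 FPKM of blood-cell genes at 0 h, and at 47.8 ± 6.69, 63.4 ± 22.1 and 18.4 ± 2.09 after 6, 24 and 144 h. Stat5a was at 6.52 ± 0.292 at 0 h and at 32.0 ± 13.3 and 8.31 ± 1.90 after 24 and 144 h. The scaled log2 change at 24 h was 2.54 ± 0.31 for Jak1 and 2.33 ± 0.33 for Stat5a, near the median of all genes (2.24). The part of the feeder cells' RNA in these values was not tested.

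**Figure D3:**
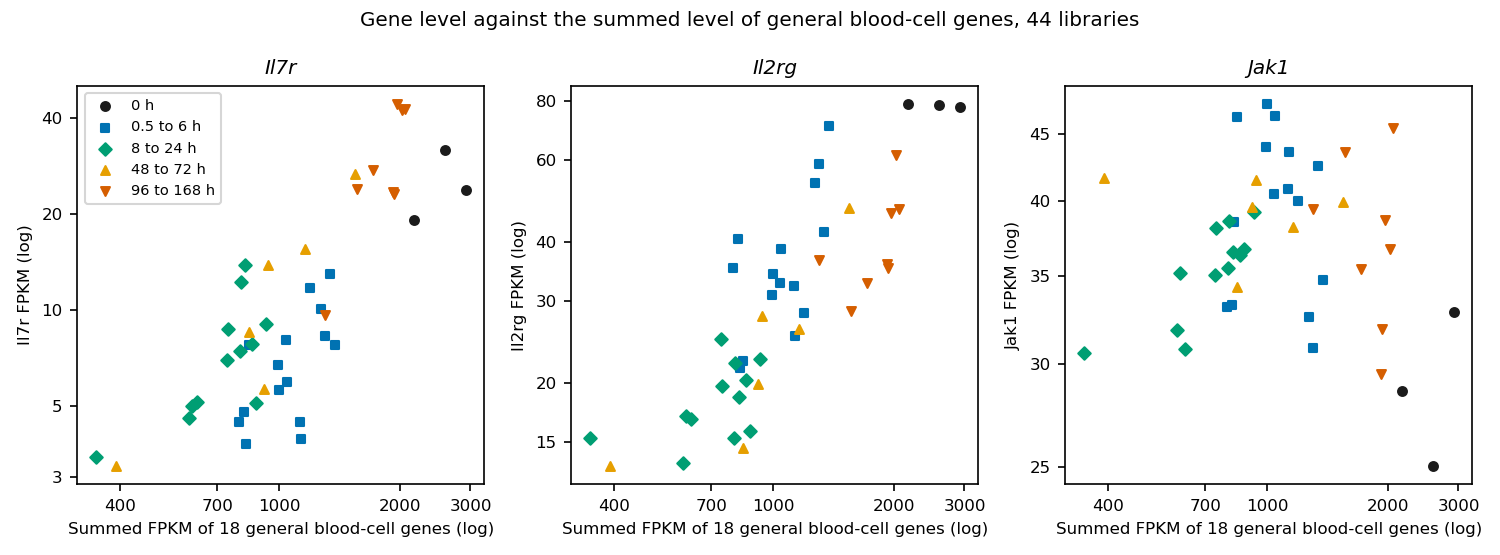
FPKM of Il7r, Il2rg and Jak1 (vertical axes, log scale) against the summed FPKM of 18 blood-cell genes (horizontal axes, log scale) in 44 libraries, with symbols for spans of time. The libraries of Il7r and Il2rg run from low to high with the blood-cell sum, the 3 libraries of Jak1 at 0 h lie at or below 32.9 FPKM at the highest sums, and the Il7r libraries from 0.5 to 6 h lie mostly below later ones of a similar sum.

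A ratio within a library shows unequal change between members, and not which of them changed. The log2 ratio of Il7r to Il2rg (each FPKM + 1) was -1.65 ± 0.35 (SD, n = 3) at 0 h, and -2.38 ± 0.33, -2.66 ± 0.33, -2.13 ± 0.67, -1.29 ± 0.77 and -0.45 ± 0.18 at 1, 2, 6, 24 and 144 h. The single libraries gave -0.25 (120 h) and -0.067 (168 h). The libraries at 1 h were all below, and those at 144 h all above, those at 0 h, so the excess of Il2rg over Il7r was larger at 1 h and smaller at 144 h than at the start. The exact two-sided permutation test gave p = 0.1 for both, the smallest that 3 against 3 libraries allow (0.208 after Benjamini-Hochberg adjustment over 25 ratios and times).

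The ratio of Jak3 to Jak1 was 0.33 ± 0.039 at 0 h, and -0.83 ± 0.46, -1.68 ± 0.54, -1.68 ± 0.51, -0.79 ± 0.36 and -0.15 ± 0.46 at 1, 6, 24, 72 and 144 h. Its libraries lay below those at 0 h at all 5 times compared (exact permutation p = 0.1 each). Jak3 was thus in excess of Jak1 in each 0 h library, and Jak1 of Jak3 in each library at 1, 6, 24 and 72 h. The ratio of Jak3 to Il2rg, a kinase and the chain it binds, overlapped 0 h at all 5 times, with differences of -0.01 at 6 h and 0.69 at 144 h. Outside these 5 times, its libraries at 2 h (-1.46 ± 0.17) were all below those at 0 h (-1.09 ± 0.18). Its libraries at 48 h (-0.11 ± 0.65) were all above those at 0 h. The ratio of Stat5a to Stat5b was -0.57 ± 0.14 at 0 h and higher in all libraries at 6 h (-0.084 ± 0.11), 24 h (0.086 ± 0.44) and 72 h (-0.075 ± 0.16), with exact permutation p = 0.1 each. At 144 h it was -0.38 ± 0.26 and overlapped 0 h. The ratio of Crlf2 to Il7r was -0.21 at 0 h and apart from it at 1 h (1.499) and 6 h (1.55).

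**Figure D4:**
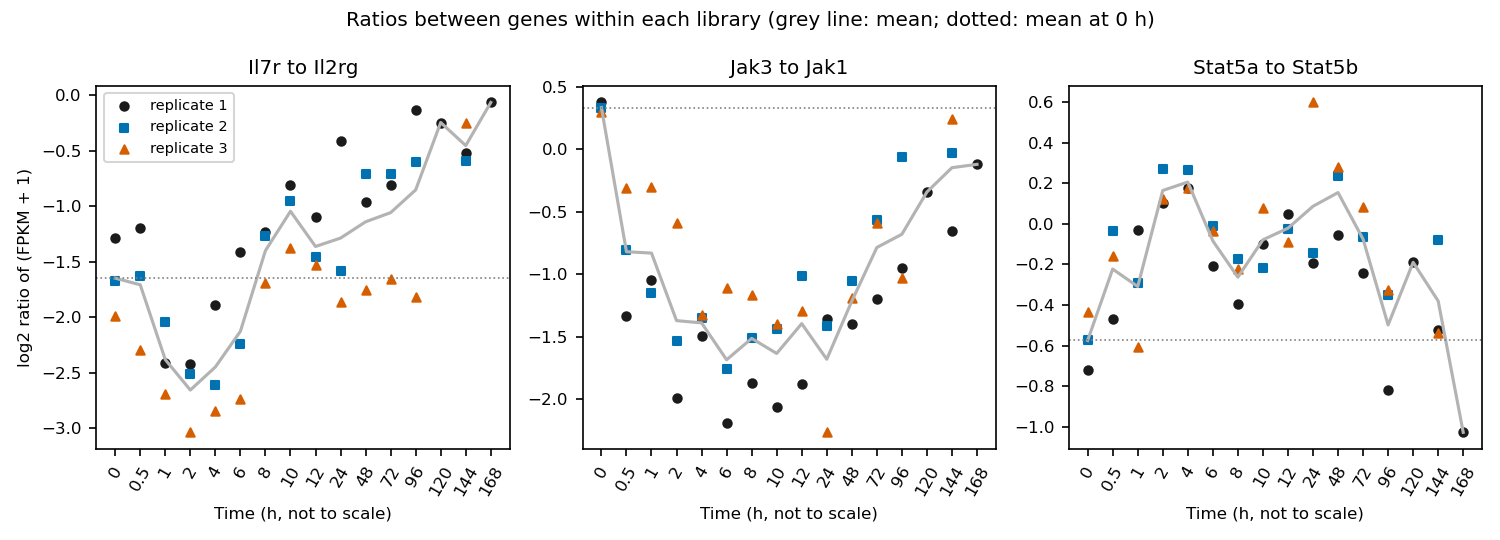
The log2 ratio of (FPKM + 1) between pairs of genes (vertical axes) in each library against time (horizontal axes, h, not to scale), with the grey line through the means and the dotted line at the mean of 0 h. Il7r to Il2rg is lowest at 2 h (-2.66) and highest at 168 h (-0.067), Jak3 to Jak1 is below its 0 h libraries at 1, 6, 24, 72 and 144 h, and Stat5a to Stat5b is above its 0 h libraries at 6, 24 and 72 h.

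Ordered by mean level, the time points of Il7r ran from 144, 96 and 0 h down to 1, 4 and 6 h, and those of Il2rg from 0, 2 and 144 h down to 12, 24 and 10 h. Jak3 ran from 0, 144 and 96 h down to 6, 10 and 24 h, and Jak1 from 2, 1 and 6 h down to 144, 24 and 0 h. Of the 13 steps between neighbours in each order, 1 step of Il2rg (0 h to the next) separated libraries without overlap, and all steps of the other 6 genes overlapped. Among the 7 genes, Il2rg was the most abundant at 0 h and Jak1 from 4 to 72 h, and Il7r was the least abundant from 0.5 to 72 h and the second most abundant at 168 h.

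From 24 to 144 h, replicates of 1 time point differed in a repeated way. Replicate 1 had the highest Il7r and the highest Il2rg at all 5 of these times, and replicate 3 had the lowest of each at 4 of 5. Replicate 1 also had the highest blood-cell sum at all 5 times and replicate 3 the lowest, and replicate 3 had the highest stromal sum at 4 of 5. At 48 h, for example, the blood-cell sum was 939, 841 and 392 FPKM and Il7r 13.8, 8.53 and 3.24 FPKM. For Jak1, Stat5a and Jak3 the order differed: Jak1 was lowest in replicate 2 at 4 of 5 times, Stat5a lowest in replicate 1 at 4 of 5, and Jak3 highest in replicate 3 at 3 of 5. Without replicate 3 at these 5 times, an alternative chosen after its low blood-cell sum was seen, 3 members in place of 5 were called at 24 h.

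Of the ligand genes, Il7 had its lowest mean at 0 h. Il7 was at 0.324, 0.429 and 2.60 FPKM in the 0 h libraries from lowest to highest, at 2.84, 3.89 and 4.34 FPKM at 6 h and at 5.27, 8.11 and 11.6 FPKM at 24 h. It was called higher at 6 h (1.29 ± 0.32, adjusted p of limma 0.00162, and 2.99 scaled to the blood-cell genes) and lower at 144 h than at 24 h (-1.39 ± 0.32). Tslp was listed at 0 in the median library at 0 h and had a mean of 2.22 FPKM at 6 h (1.45 ± 0.61, adjusted p 0.0572). The stromal sum, too, was higher at 6 h than at 0 h and lower at 144 h than at 24 h. At 1 and 4 h the mean of Il7 was 5.98 and 2.59 FPKM, and the stromal sum ranged over 5578 to 8139 and 8007 to 9086 FPKM. The part of the feeder cells in the level of Il7 was not tested. Which cells made either ligand was not measured.

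Of 6 related cytokine receptor chains, 5 were tested, and 4 were called lower and 0 higher at 6 h, beside 19.2% and 19% of all genes. The median change was -1.25 (-0.06 over all genes). Scaled to the blood-cell genes, 1 was lower and 2 were higher, with a median of 0.44. That scaling moves the median of all genes at 6 h to 1.64 and called 12253 of the 13907 genes higher, so counts of higher genes after it follow a general shift. Il2ra, a chain of the high-affinity IL-2 receptor, changed by -2.54 ± 0.35 as deposited and was the 1 chain still called lower after scaling (-0.85, adjusted p of limma 0.0294). The others named by size were Il2rb, shared by the IL-2 and IL-15 receptors (-2.37 ± 0.59, and -0.68 after scaling), and Il21r, the IL-21 receptor (-1.25 ± 0.28, and 0.44 after scaling). At 144 h, 2 were called lower (3.24% of all genes), Il21r (-1.40 ± 0.28) and Il4ra, the IL-4 receptor chain (-0.84 ± 0.19). Neither passed the test after scaling (-0.95 and -0.39). Il2ra was higher at 144 h than at 24 h (2.27 ± 0.35, and 0.42 after scaling), with means of 42.1 and 8.41 FPKM.

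Among the 7 other Janus kinase and STAT genes, 3 were called higher and 2 lower at 6 h, beside 19% and 19.2% of all genes. At 144 h 0 were called (8.89% of all genes). Scaled to the blood-cell genes, 7 were higher at 6 h, where that scaling moves the median of all genes to 1.64. Stat2, a factor of the interferon response, changed by 1.37 ± 0.36, and Stat4, the mediator of IL-12 signals, by -0.85 ± 0.34 from a mean of 1.20 FPKM (0.84 after scaling). Of 10 negative regulators of the pathway, 6 were called lower and 1 higher at 6 h, beside 19.2% and 19% of all genes. Their median change was -0.77 (-0.06 over all genes). Scaled to the blood-cell genes 6 were higher and 0 lower, with a median of 0.92 beside 1.64 over all genes. That scaling shifts all genes of a library alike, so it cannot change the gap between the list median and that of all genes. Cish, a feedback inhibitor that STAT5 induces, changed by -2.22 ± 0.37 (from 50.1 to 10.3 FPKM), Socs1, an inhibitor of JAK kinases, by -1.61 ± 0.39, and Ptpn6, the phosphatase SHP-1, by -1.47 ± 0.26, while scaling gave -0.53, 0.077 and 0.22 for the 3 and called none of them. Socs3, an inhibitor that STAT3 induces, was higher at 6 h (1.41 ± 0.33) and at 144 h (1.58 ± 0.33), where it was the 1 regulator called. From 24 h to 144 h, 6 of 10 were called higher and 0 lower, beside 17.4% and 15.6% of all genes. After scaling 1 was called higher and 8 lower, with a median of -1.04 beside -1.77 over all genes. Among the 6 called as deposited were Cish (2.66 ± 0.37, and 0.81 after scaling) and Socs1 (1.43 ± 0.39, and -0.42 after scaling).

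Of 12 genes known as STAT5 targets in blood cells, 6 were called lower and 1 higher at 6 h, beside 19.2% and 19% of all genes. Scaled to the blood-cell genes 1 was lower and 6 were higher, with a median of 0.92 beside 1.64 over all genes. The gap between these medians is again one that the scaling cannot change. Osm, a cytokine, changed by -2.73 ± 0.63, and the survival kinases Pim1 and Pim2 by -2.68 ± 0.35 (from 318 to 48.6 FPKM) and -2.44 ± 0.46, and after scaling Osm (-1.04) and Pim2 (-0.75) kept their sign without passing the test. Pim1 was the target still called lower after scaling (-0.99, adjusted p of limma 2.6e-05). Bcl6, a repressor that STAT5 holds down in B-cell precursors, was higher at 6 h (1.12 ± 0.28). At 144 h, 5 were called higher than at 0 h and 0 lower, beside 5.64% and 3.24% of all genes. Among the 5 were Ccnd3, the D-type cyclin of dividing B-cell precursors (1.99 ± 0.23, from 70.7 to 285 FPKM), Myc (0.98) and Id2 (0.94 ± 0.25). Scaling kept all 3 of these calls at 144 h (2.44, 1.42 and 1.38). The list medians as deposited were -0.77 (6 h) and 0.0073 (144 h), and 18 of 18 blood-cell genes were lower at 6 h too, with a median of -1.59. In the model that holds the stromal mean, 4 of the 12 STAT5 targets were called higher at 144 h, with 299 of all 13907 genes called higher, and at 6 h that model called 14 of all genes and 0 of the pathway lists, too few to describe a list by. The part of the lower blood-cell signal in these counts was not tested.

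For each member the 3 genes with the most similar profile were taken by Pearson's r of log2(FPKM + 1) over the 42 libraries of replicated times, which share the swing of blood-cell and stromal signal, so r is a description. The genes nearest to Il7r were Rag2 (0.911), Selplg (0.903), itself 1 of the 18 blood-cell genes, and Paics (0.899). Nearest to Il2rg were Malt1 (0.912), Rps3a (0.888) and BC005537 (0.884), and nearest to Jak3 were Ifitm1 (0.916), Ptprs (0.914) and Eif3f (0.902). Jak1 was most like Clu (0.809), Gpc6 (0.758) and Mme (0.750), and Stat5b most like Mtmr3 (0.846), Patz1 (0.839) and Grb2 (0.831). Values were lower for Crlf2 (Rbm42, 0.721, then Trp53i13 and Armc5, both 0.679) and Stat5a (Tmub2, 0.678, Gm16515, 0.667, and Nucb1, 0.643). Between members, r was 0.651 for Il2rg with Jak3, 0.591 for Il7r with Il2rg, 0.601 for Il7r with Jak3 and 0.334 for Stat5a with Stat5b.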

How the data were processed

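The authors deposited 1 table of FPKM values for 23234 genes in 44 libraries. It is named as corrected, and what was corrected is not given in the sources used here. Per the submitters' processing notes, the tools were Cufflinks 2.1.1 and TopHat2 2.1.0 and the genome build was mm9. The depth in reads is unknown, so counting intervals cannot be given. Relative depth, estimated from the smallest values, ran from 0.551 to 2.27, and low genes in shallow libraries are the least precise.

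Values were taken as log2(FPKM + 1), a scale that understates the change of low genes. The fit covered the 13907 genes that reached 1 FPKM in 3 or more of 42 libraries. limma 3.58.1 in R 4.3.3 fitted 1 mean per time point, with eBayes and a mean-variance trend, and p-values were adjusted by Benjamini-Hochberg over all genes within a comparison and called under 0.05. The single libraries were not fitted. Ratios were tested with scipy 1.17.1. The alternatives were a pseudocount of 0.1, no filter, median-ratio and quantile normalization, scaling to the blood-cell genes, the stromal mean, the replicate number or the library-code run in the model, and leaving out each library.

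The 7 genes and all gene lists were chosen with earlier results of these data known. All 7 are named throughout. Of each pathway list the text names up to 3 genes called at 6 h and at 144 h with the largest change, and the ligands Il7 and Tslp always; a gene that this would name is not reported here. Other values of the genes so named, such as those of Il2ra, Cish and Socs1 at 144 h against 24 h, and Bcl6, which lies outside this rule, were chosen after being seen.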

Additional observations from a re-analysis of the deposited data

Results flagged for a closer look

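The single libraries at 120 h and 168 h enter no comparison. Jak1 was at 43.6 FPKM at 120 h and 38.6 FPKM at 168 h, and Il7r was at 44.1 FPKM at 168 h, each above the highest of the 3 libraries at 0 h (32.9 FPKM for Jak1 and 31.6 FPKM for Il7r). With 1 library at each time, these differences have no replicate check.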

How the results depend on the processing

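Pseudocount, filter, median-ratio and quantile normalization moved none of the 7 counts of called members beyond 1.5 times. With the stromal mean as a covariate the counts were 0 at 1, 6, 24 and 72 h (27, 14, 8 and 0 of all 13907 genes), 1 at 144 h against 24 h (395) and 1 by the F test (3910); scaled to the blood-cell genes they were 4 at 72 h (10837 of all genes) and 5 by the F test (13061); without replicate 3 from 24 to 144 h the count at 24 h was 3. Leaving out 1 library gave 1 to 4 members at 1 h, 4 to 5 at 6 h, 3 to 5 at 24 h, 1 to 2 at 72 h, 0 to 1 at 144 h, 3 to 4 at 144 h against 24 h and 3 to 4 by the F test. The cause was not tested. Sign changes follow where either fit called the gene. Scaled to the blood-cell genes, the log2 change turned to 0.094 (Il2rg), 1.07 (Crlf2), 0.47 (Jak3), 1.02 (Stat5a) and 0.75 (Stat5b) at 1 h, to 0.12, 1.41, 0.11, 1.51 and 1.02 for the same genes at 6 h, to 0.51 (Il7r), 0.15 (Il2rg), 1.38 (Crlf2), 0.53 (Jak3) and 1.67 (Stat5b) at 24 h, to 1.08 (Crlf2) and 0.85 (Stat5b) at 72 h, and, at 144 h against 24 h, to -0.61 (Il2rg), -1.003 (Crlf2), -1.83 (Jak1), -0.30 (Jak3) and -1.52 (Stat5b). With the stromal mean it turned to 0.39 (Il7r), 0.19 (Il2rg) and -0.096 (Jak1) at 1 h, 0.56 (Il7r) and -0.19 (Jak1) at 6 h, 0.55 (Il7r) at 24 h and -0.049 (Jak1) at 72 h. Equal replicate numbers were not taken as pairs, since only 18 of 39 same-number correlations were over 0.1 (range -0.084 to 0.27), though 33 of 39 were the best of their library. With the replicate number as a block, the counts were 5, 5, 5, 3 and 0 at 1, 6, 24, 72 and 144 h, 4 at 144 h against 24 h and 4 by the F test, and Jak1 and Stat5b were each called at 8 time points in place of 5. Depth in reads is unknown, so the precision of low values such as Tslp cannot be stated.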
